A study of Mus musculus with 2 samples.

Results

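The mouse miRNAs from miR-3057 to miR-3113 carry consecutive catalogue numbers, and most of them are listed as both arms of 1 hairpin. They were chosen here by probe name alone, leaving out miR-3070, miR-3071 and miR-3072, which belong to an imprinted cluster. The names gave 107 probes, of which miR-3081-3p was left out for its quality flags, so that 106 of the 1899 mouse miRNA probes with good flags were described. These 106 probes cover 51 miRNA numbers, with 53 probes for 5p arms and 53 for 3p arms.

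Total RNA came from colonic epithelial cells isolated from C57BL/6 mice 8 weeks old. Control cells were set against cells of mice that drank water with 2.5% dextran sulfate sodium (DSS) over 5 days, an agent that damages the gut lining and sets off colitis. There was 1 control array and 1 DSS array, hybridised with RNA carrying the dye Hy5. No difference between the conditions therefore has a replicate check, a p-value or an error, and the labels do not say whether RNA of several mice was pooled.

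A miRNA hairpin is cut out of a longer transcript by Drosha, or released by splicing when a short intron forms the hairpin itself, and Dicer then leaves a duplex of the 5p and the 3p arm. As a rule 1 arm, the guide, stays in an Argonaute protein and the other, the passenger, is degraded. The guide finds its target mRNAs mainly through its seed, the bases 2 to 8 counted from the 5′ end. No function is given here for single members; the values describe which arms gave signal and how both arrays compared.

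The sequences of the miRNAs on which the results turn are given first, from RefSeq on GRCm38.p6, with the seed in capitals. RefSeq sequences were matched by name for 95 of the 107 probes. The 5 brightest members are all 5p arms and are shown because their spots stand apart from all other members on both arrays. They are miR-3077-5p (chr14:57798424-57798448, plus strand), miR-3102-5p (chr7:100882388-100882409, minus strand), miR-3090-5p (chr2:133564722-133564742, plus strand), miR-3104-5p (chr7:141992180-141992204, plus strand) and miR-3102-5p.2-5p (chr7:100882367-100882387, minus strand).
miR-3077-5p: cUGCGGACgggugggcgggcaggcc
miR-3102-5p: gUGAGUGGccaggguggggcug
miR-3090-5p: gUCUGGGUggggccugagauc
miR-3104-5p: uAGGGGGCaggagccggagcccucu
miR-3102-5p.2-5p: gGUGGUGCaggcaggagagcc

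The miR-3102 hairpin gives 4 listed products, an outer pair (miR-3102-5p and miR-3102-3p) and an inner pair (miR-3102-5p.2-5p and miR-3102-3p.2-3p). By their positions the outer 5p product ends directly beside the inner one. The 3p partners of the bright probes are shown for comparison of the arms.
miR-3102-3p: gAGCACCCcauuggcuacccaca
miR-3102-3p.2-3p: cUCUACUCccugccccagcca
miR-3077-3p: cUGACUCCcugcuucuccgcag
miR-3090-3p: uCCCAGGUgacacccugacuca
miR-3104-3p: aCGCUCUGcuuugcucccccaga

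The members with the largest difference each way after normalisation were miR-3069-3p (chr12:105031078-105031099, minus strand), brighter on the DSS array, and miR-3101-3p (chr7:27176020-27176040, minus strand), dimmer on it. In the Mir3069 hairpin (chr12:105031077-105031141, minus strand, 65 bases) both mature arms are in capitals, the 5p arm first.
miR-3069-3p: uUGGACACuaaguacugccaca
miR-3101-3p: uAGCUUUGguggauggucuuu
Mir3069 hairpin: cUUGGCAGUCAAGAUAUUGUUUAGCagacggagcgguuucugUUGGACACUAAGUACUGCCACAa

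Of 47 member hairpins in the RefSeq table, 40 lie within the span of a protein-coding gene, 3 within the span of a non-coding gene and 4 in no gene span. Whether a hairpin lies in an exon or an intron could not be read from this table. The strands of hairpin and gene were not compared, so a hairpin within a gene span can lie on the opposite strand. Mir3077 lies within Sap18, which encodes a subunit of the Sin3 co-repressor complex, Mir3104 within Brsk2, a protein kinase gene, and Mir3064 within Ddx5, an RNA helicase gene. Mir3101 lies within Rab4b, a gene for a small GTPase of endosomal recycling. Mir3069 lies within the long non-coding gene Snhg10 and also within Scarna13, a gene for a guide RNA of the Cajal bodies.

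Signal is given as brightness over blanks, the median spot intensity minus the trimmed mean of 896 blank spots of the same array, in the scanner's units. A probe counted as measured when it lay over the blank mean by more than 2 SD of the blanks, which was 6.98 (control) and 9.06 (DSS). Among spots named No Probe, 17 of 174 (9.77%) passed this limit on the control array, 54 (31%) on the DSS array and 3 on both (1.72%). What these spots hold is not known. Of 32 negative control spots, 12 (37.5%) passed it on the control array, 20 (62.5%) on the DSS array and 9 on both (28.1%), so a probe just over the limit is not shown to hold its miRNA. The brightest negative control set averaged 13.2 over blanks (control) and 15.8 (DSS). Of the listed miRNAs of colonic epithelium, 8 of 9 (control) and 9 of 9 (DSS) were measured, with a summed brightness of 949 and 976. Leukocyte miRNAs were measured for 3 and 4 of 6 (summed brightness 56.4 and 161), erythroid miRNAs for 1 of 2 on each (31.4 and 78.7), and smooth muscle and fibroblast miRNAs for 5 of 6 on each (1027 and 823). The endothelial one was measured on both (11.6 and 11.3), below the brightest negative control set of each array. The part of these cell type miRNAs in the members' values was not tested. Spots of different probes bind with different strength, so their brightness does not rank the amounts of their miRNAs, and in bulk RNA fewer cells of a type and less RNA per cell cannot be told apart.

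The members were detected at close to the share of all miRNA probes. The control array measured 61 of 106 members (57.5%), against 56.3% of all probes, and the DSS array 63 (59.4%), against 61.6%. Both arrays measured 54 members (50.9%), against 52.4% of all probes. Another 7 members were measured on the control array only (background 3.95%), 9 on the DSS array only (background 9.16%) and 36 on neither (background 34.5%). On the control array 12 of the 61 (19.7%) lay more than 100 over blanks, against 29.5% of all measured probes, and on the DSS array 10 of the 63 (15.9%), against 21.1%. Among probes measured on both arrays the members' median was 43.6 (control) and 36.3 (DSS), beside 49.0 and 39.3 for all. No more signal than the brightest negative control set was found for 10 of the measured members (control) and 13 (DSS), and 45 of 106 members (42.5%) passed those controls on both arrays, against 42.7% of all probes.

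**Figure D1:**
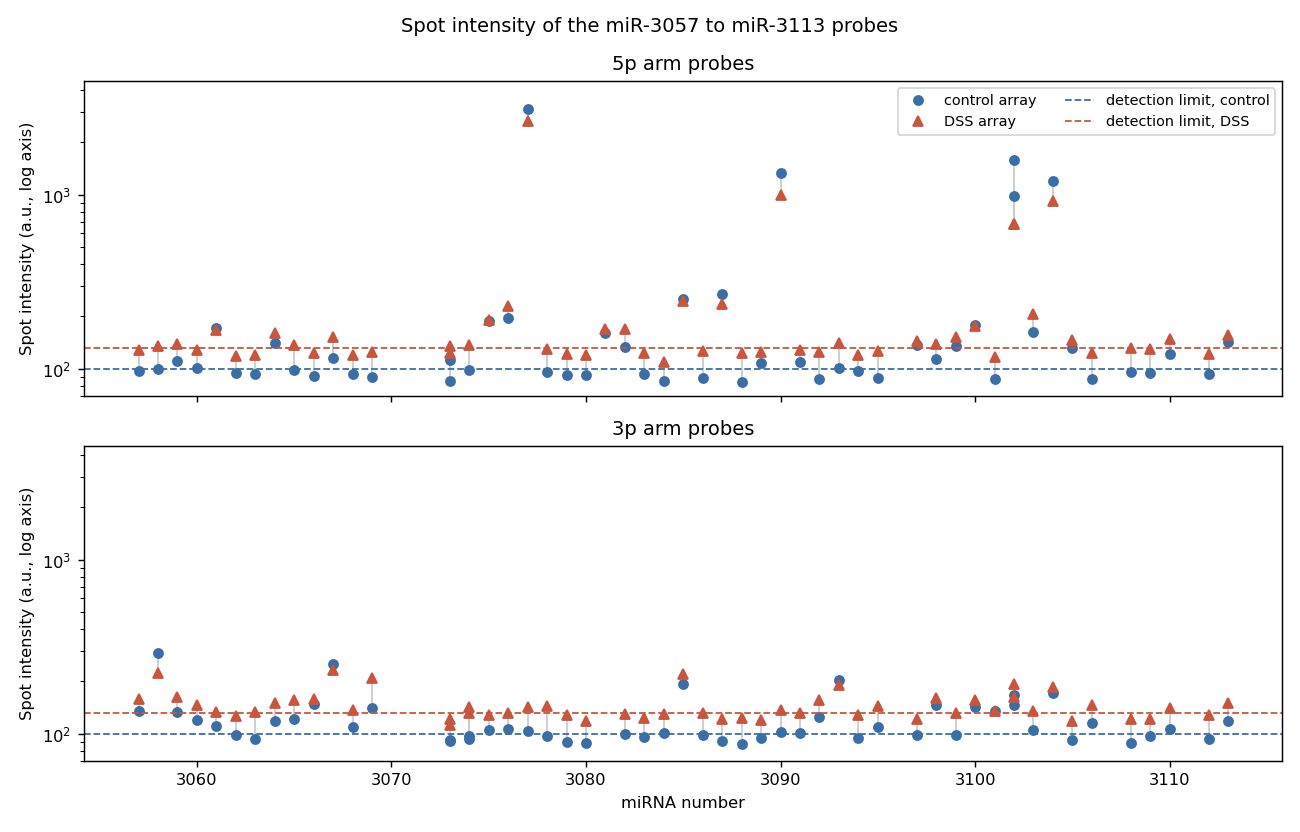
Spot intensity (log axis, arbitrary units) of every described probe by miRNA number, 5p arms above and 3p arms below, with circles for the control array, triangles for the DSS array and dashed lines at each array's detection limit. The 5 probes near or above 500 are 5p arms of miR-3077, miR-3090, miR-3102 (both products) and miR-3104, and most others sit near the limits.

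By arm, the control array measured 29 of 53 5p probes (background 55.9%) and 32 of 53 3p probes (background 54.8%), and the DSS array 29 5p probes (background 62.2%) and 34 3p probes (background 60.5%). Of the 53 5p probes, 26 were measured on both arrays (49.1%), against 52.5% of all 5p probes, and 28 of 53 3p probes (52.8%), against 51% of all 3p probes. Both arms had a usable probe in 51 duplexes, with the outer and the inner pair of miR-3102 counted apart. In 18 of the 51 both arms were measured on both arrays (35.3%), against 36.9% of all 726 duplexes on the array. On both arrays 4 duplexes showed the 5p arm alone, namely miR-3073a, miR-3087, miR-3097 and miR-3105. The 3p arm alone was seen on both arrays in 8, namely miR-3057, miR-3066, miR-3068, miR-3069, miR-3092, miR-3095, miR-3101 and miR-3106. That is 15.7% of the duplexes for 3p alone and 7.84% for 5p alone, where the other 675 duplexes had 9.78% and 10.8%. In 9 duplexes (17.6%) neither arm was measured on either array, against 18.5% of the other duplexes, and 12 (23.5%) changed class between the arrays, against 23.9%. miR-3074, listed with 1 5p arm and a 3p arm for each of its genomic copies, had none of its 3 probes measured on the control array and all 3 on the DSS array, at 15.8 (miR-3074-5p), 21.2 (miR-3074-1-3p) and 9.69 (miR-3074-2-3p) over blanks. Of these 3, miR-3074-1-3p alone passed the negative controls.

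The brightest spots came from the 5p arms of 4 hairpins. miR-3077-5p had 3020 over blanks (control) and 2548 (DSS). miR-3102-5p had 1486 and 558, and the adjacent inner product miR-3102-5p.2-5p had 887 and 556. miR-3090-5p had 1247 and 871, and miR-3104-5p had 1108 and 803. All 5 were dimmer on the DSS array before scaling, and the other members measured on both arrays had at most 198 (control) and 124 (DSS). In the authors' deposited table, in which the members' values equal the brightness over blanks times 1 factor per array, these probes went from 1700 to 2005 (miR-3077-5p), from 836 to 439 (miR-3102-5p), from 499 to 438 (miR-3102-5p.2-5p), from 701 to 685 (miR-3090-5p) and from 624 to 632 (miR-3104-5p). On that scale miR-3102-5p stood out from the other 4, which lay within a log2 difference of −0.19 to 0.24.

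The 3p partners gave dim spots. miR-3077-3p had 11 (control) and 20.7 (DSS) over blanks and miR-3090-3p 9.3 and 16, so both passed the negative controls on the DSS array and not on the control array. miR-3104-3p had 78.6 and 63.2, miR-3102-3p 53.4 and 41.5, and miR-3102-3p.2-3p 74.0 and 72.4, well over the limits on both arrays.

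Differences are log2 values of the DSS array minus those of the control array, background corrected with an offset of 50 and then quantile normalised. On this scale 0 of the 54 members measured on both arrays were at least 2-fold higher on the DSS array (background 0.503%) and 0 were at least 2-fold lower (background 1.01%). The members' median difference was −0.001, beside −0.004 for all 995 probes measured on both arrays. There were 26 higher (background 48.1%) and 27 lower members, and 44 of 54 (81.5%) lay within 0.25 of 0, where 74.8% of all probes did. The members ran from −0.41 to 0.68. The offset shrinks the folds of dim probes. In the authors' deposited table, which carries none, 6 of the 54 were at least 2-fold higher (background 8.94%) and 1 at least 2-fold lower (background 4.12%). The 6 were miR-3093-5p (1.65), miR-3077-3p (1.40), miR-3069-3p (1.35), miR-3058-5p (1.27), miR-3090-3p (1.27) and miR-3110-3p (1.01). Of these, miR-3069-3p and miR-3110-3p (13.8 and 19.8 over blanks) lay above the negative controls on both arrays, and the other 4 lay below them on the control array.

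**Figure D2:**
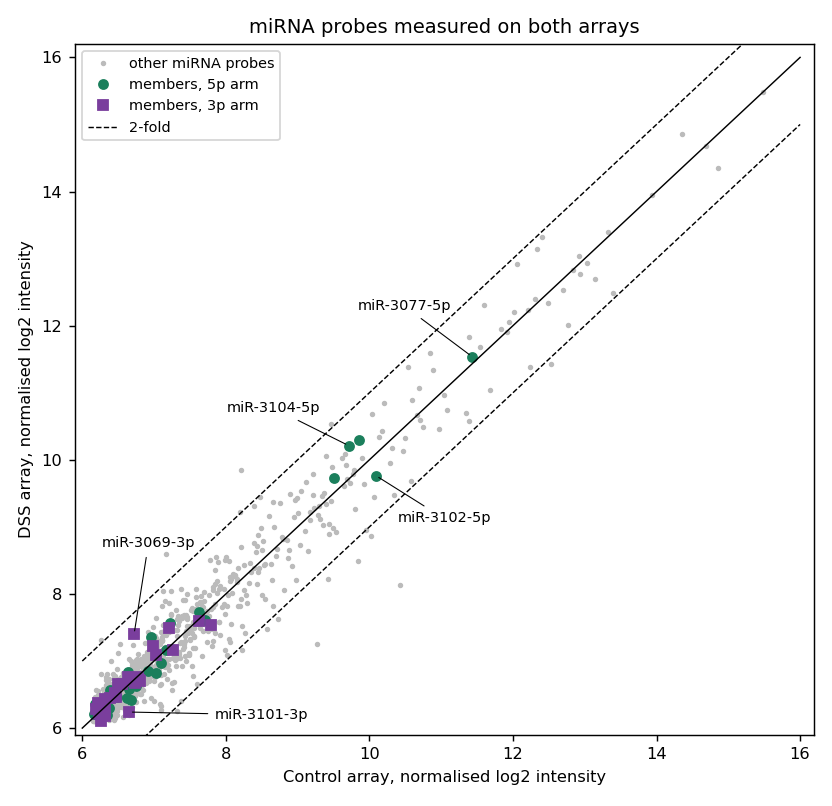
Normalised log2 intensity of all miRNA probes measured on both arrays, control on the horizontal and DSS on the vertical axis, 1 point per probe. Circles and squares are the 26 5p and 28 3p members, and all 54 lie between the dashed 2-fold lines.

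miR-3069-3p showed the largest difference upward. Its spot lay at 48.3 over blanks (control) and 88.0 (DSS), a log2 difference of 0.68 (1.60-fold), at the 97.8 percentile of the 995 probes. It was the 1 member at least 1.5-fold higher (background 3.22%), and 0 were at least 1.5-fold lower (background 4.22%). Without scaling it was still brighter on the DSS array (0.48), in the authors' deposited table it went from 27.2 to 69.2 (1.35), and with scaling to the spike control spots it was at −0.49. The other arm, miR-3069-5p, lay at −2.48 and 3.21 over blanks, below the limit on both arrays. The files also give each spot a background value, whose definition is not given and which is high where the spot is bright. For miR-3069-3p it came to 94.5% of the spot (control) and 102% (DSS), so that no value remained after subtracting it.

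Among the other 7 largest differences upward, 3 belong to the bright 5p arms and turn with the scaling. miR-3104-5p was at 0.50 and miR-3090-5p at 0.43 after quantile normalisation, but at −0.43 and −0.48 with no scaling and at 0.02 and −0.03 in the authors' deposited table. miR-3102-5p.2-5p went from 0.23 to −0.61 with no scaling. Subtracting the files' background value put miR-3090-5p at 3.79 and miR-3102-5p.2-5p at 4.27, and left miR-3104-5p without a value. That background came to 98.4% (miR-3090-5p) and 99.2% (miR-3102-5p.2-5p) of the spot on the control array. The remaining 4 were at 0.44 to 0.74 in the authors' deposited table, where the median of all probes measured on both arrays was itself 0.21. They were miR-3103-5p (0.40, with 70.7 and 84.3 over blanks), miR-3076-5p (0.34, with 103 and 106), miR-3085-3p (0.30, with 101 and 97.6) and miR-3102-3p.2-3p (0.23). With no scaling these 4 lay between −0.0002 and 0.17, and with spike control scaling all were below 0. With the files' background value subtracted, miR-3103-5p was at −0.15, miR-3102-3p.2-3p at −0.31 and miR-3085-3p at 0.87, and miR-3076-5p had no value.

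On the lower side, miR-3101-3p had 41.9 over blanks (control) and 14.2 (DSS), a log2 difference of −0.41. On the DSS array it thus lay below the brightest negative controls (15.8). The difference was −1.08 in the authors' deposited table, where it was the 1 member at least 2-fold lower, and −0.40 with no scaling. miR-3102-5p followed with −0.32, which became −1.32 with no scaling and −1.22 with median scaling. miR-3097-5p (44.6 and 23.0 over blanks) and miR-3058-3p (198 and 103) both differed by −0.26, miR-3061-5p (78.6 and 46.1) by −0.21 and miR-3105-5p (39.6 and 24.4) by −0.18. Each of these 6 was lower on the DSS array under every scaling and background setting that gave it a value. Spike control scaling put the median of all probes at −1.02, so it could not turn a member that was lower with no scaling. Subtracting the files' background value gave a value for miR-3061-5p and miR-3105-5p alone among them. miR-3076-3p (−0.15) and miR-3061-3p (−0.14) lay near the detection limit and turned to 0.05 and 0.04 with median scaling.

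**Figure D3:**
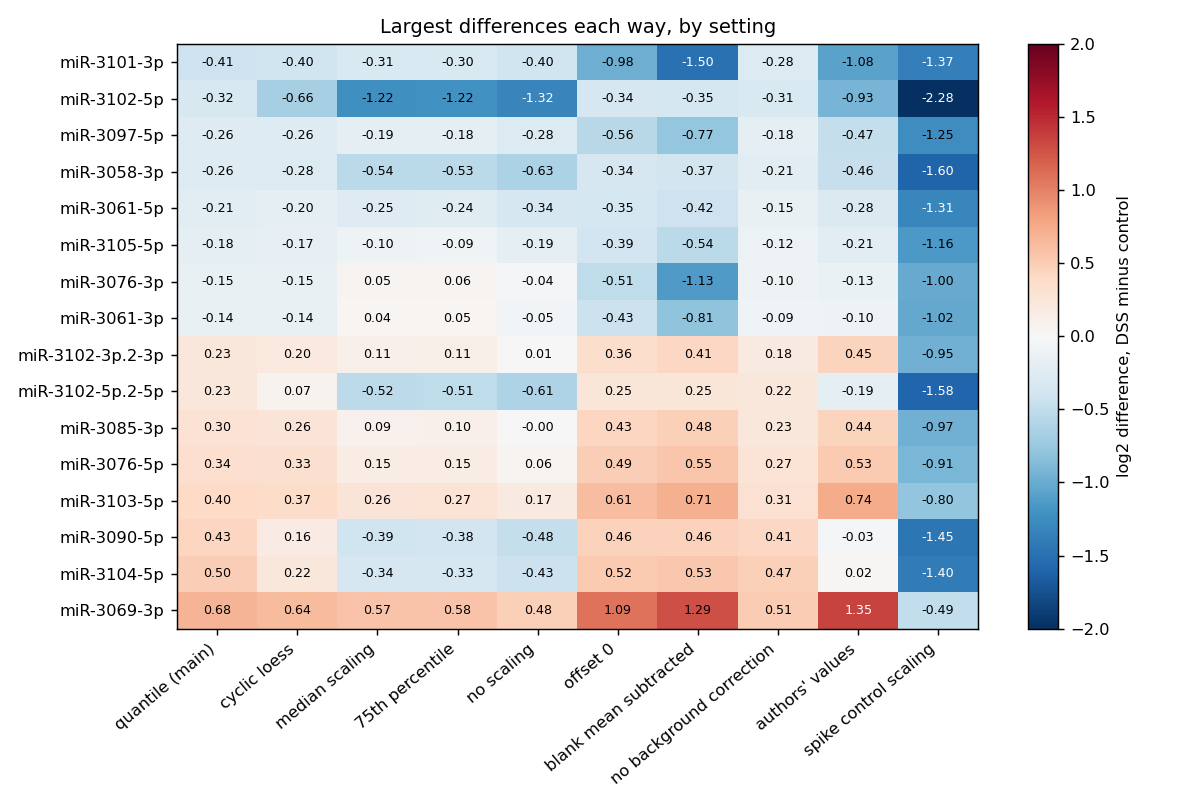
Log2 difference, DSS minus control, of the 8 members with the largest difference each way (rows) under 10 settings (columns), printed in each cell and coloured from blue (lower on the DSS array) to red (higher). miR-3069-3p is above 0 in every column with a value but spike control scaling, and miR-3102-5p.2-5p, miR-3090-5p and miR-3104-5p turn below 0 with no scaling.

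The neighbouring 5p products of the miR-3102 hairpin differed unequally. The outer product went from 1486 to 558 over blanks and the inner one from 887 to 556. Outer minus inner, the difference of their log2 differences was −0.55 after quantile normalisation, −0.70 under each scaling by 1 factor per array, −0.73 with cyclic loess and −0.74 in the authors' deposited table. On the 3p side the outer product differed by −0.02 and the inner by 0.23. The files' background value exceeded the miR-3102-5p spot on the DSS array (746 against 679), so no value remained for it after that subtraction.

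In the 18 duplexes with both arms measured on both arrays, the arms differed in the same direction in 9, which is 50% beside 54.5% of all 268 such duplexes. The median gap between the differences of both arms was 0.18, beside 0.22 for all such duplexes, and the largest was 0.50, in miR-3076 (5p 0.34, 3p −0.15). In miR-3104 (5p 0.50, 3p 0.06), miR-3090 (5p 0.43, 3p 0.10), miR-3085 (5p 0.10, 3p 0.30), miR-3077 (5p 0.11, 3p 0.16) and the inner pair of miR-3102 (0.23 for both) the arms were higher together, although with no scaling the 5p arm of each of these 5 was below 0. With no scaling miR-3104-3p (−0.13) and miR-3085-3p (−0.0002) were below 0 as well, and the other 3p arms of these 5 were above 0. In miR-3061 (5p −0.21, 3p −0.14), miR-3100 (5p −0.13, 3p −0.07), miR-3098 (−0.08 and −0.07) and the outer pair of miR-3102 (5p −0.32, 3p −0.02) they were lower together, although in the authors' deposited table miR-3100-3p, both arms of miR-3098 and miR-3102-3p were above 0. In 8 duplexes the directions differed and in miR-3064 the 5p arm stood at 0.00. The 8 were miR-3076, miR-3059 (5p −0.004, 3p 0.12), miR-3110 (5p −0.01, 3p 0.11), miR-3113 (5p −0.11, 3p 0.05), miR-3103 (5p 0.40, 3p −0.02), miR-3058 (5p 0.05, 3p −0.26), miR-3067 (5p 0.18, 3p −0.03) and miR-3093 (5p 0.18, 3p −0.11), although miR-3103-3p (0.08), miR-3059-5p (0.05) and miR-3110-5p (0.005) were above 0 with no scaling. In these 8, miR-3058-5p (7.69 and 13.2 over blanks) and miR-3103-3p (12.5 and 13.4) lay below the negative controls on both arrays, miR-3093-5p (8.83 and 19.8) on the control array, and miR-3076-3p (14.1 and 9.2), of the widest gap, on the DSS array. Among the 9 with arms in the same direction, miR-3077-3p (11 over blanks) and miR-3090-3p (9.3) lay below them on the control array. On the DSS array miR-3061-3p (11.9) did.

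**Figure D4:**
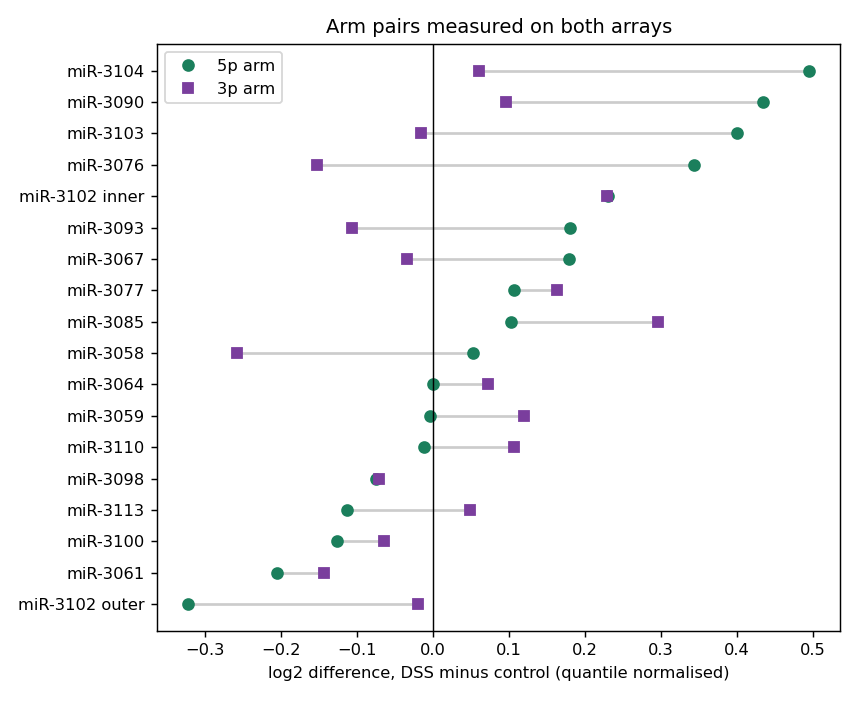
Log2 difference, DSS minus control, of the 5p arm (circle) and the 3p arm (square) for the 18 duplexes with both arms measured on both arrays, 1 row per duplex, ordered by the 5p value. The circles spread from −0.32 to 0.50 and the squares from −0.26 to 0.30, and the arms lie on the same side of 0 in 9 rows.

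The members measured on a single array were dim. On the DSS array alone miR-3078-3p (22.0 over blanks, against 4.81 on the control array), miR-3074-1-3p (21.2 against 4.30) and miR-3074-5p (15.8 against 5.74) were the brightest, and the last did not pass the negative controls. On the control array alone these were miR-3091-5p (16.5 against 6.42 on the DSS array), miR-3089-5p (15.8 against 3.27) and miR-3075-3p (12.8 against 5.75). A fold against a probe not above the limit is a lower bound, formed from the normalised values and the lowest measured value of the other array. It was at least 1.19-fold for miR-3078-3p and at least 1.14-fold for miR-3091-5p, the highest bound of each side. Just above the limit lay miR-3082-3p on the control array (7.68 over blanks) and miR-3076-3p on the DSS array (9.2), and just below it miR-3097-3p (5.98) and miR-3091-3p (9.06).

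Several members are listed opposite another miRNA on the other strand of the same locus, where a probe can be set beside that for the opposite strand. Mir3073a and Mir3073b overlap on opposite strands of chr12, within the span of Aspg, an asparaginase gene. miR-3073a-5p (chr12:112109252-112109273, plus strand) shares 20 positions with miR-3073b-3p (chr12:112109250-112109271, minus strand).
miR-3073a-5p: gUGGUCACaguuggcgccagcc
miR-3073b-3p: cUGGCGCCaacugugaccacug
Of the 4 products of both hairpins, miR-3073a-5p was measured on both arrays, at 19.4 and 12.7 over blanks, and the other 3 on neither. On the DSS array its brightness lay below the negative controls (15.8). miR-3074-5p (chr13:63301249-63301270 and chr8:84208873-84208894, minus strand) lies opposite miR-24-3p, a miRNA of many tissues, and shares 20 positions with it at both loci. miR-24-3p had 4513 and 3188 over blanks, and miR-3074-5p 5.74 and 15.8. miR-3065-5p, which overlaps miR-338-3p by 21 positions on the other strand, had 5.19 and 15.5 over blanks, and miR-338-3p 2.87 and 1.42. Neither miR-3074-5p nor miR-3065-5p was measured on the control array, and neither passed the negative controls on the DSS array. miR-338-3p lay below the limit on both arrays.

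Of the members with a sequence, 9 share a seed with a probe outside the number range. Among members with a sequence, miR-3064-5p and miR-3085-3p share 1 seed, and miR-3073a-5p and miR-3073b-5p another.
miR-3064-5p: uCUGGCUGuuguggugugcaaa
miR-3085-3p: uCUGGCUGcuauggcccccuc
miR-3073b-5p: aUGGUCACaguggacaucaacc
miR-3064-5p had 48.3 and 38.3 over blanks and a difference of 0.00, holding the same rank on both arrays. miR-3085-3p had 101 and 97.6 and a difference of 0.30, which was −0.0002 with no scaling. miR-3073b-5p was not measured on either array. Among the 9 members named first, miR-3102-5p shares its seed with miR-702-5p and miR-3103-5p with miR-6965-5p and miR-7047-5p.

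Members rich in G and C had brighter spots, and the same held over all miRNA probes. In the 94 members with a sequence and a usable probe, G and C made up a median of 60.9% of the bases in the 49 measured on both arrays and 45.5% in the 31 measured on neither, where all 1613 such probes had 59.1% and 43.5%. Across the 46 5p members Spearman's rho between this share and the brightness over blanks was 0.80 (control) and 0.78 (DSS), beside 0.72 and 0.68 across all 667 5p probes. Across the 48 3p members rho was 0.51 and 0.49, beside 0.65 and 0.60 across all 674 3p probes. The points share 1 array and 1 hybridisation each, and sequences of similar composition are not independent. Between the share of G and C and the difference of DSS minus control, rho was 0.12 across the 49 members measured on both arrays, beside −0.05 across all probes measured on both. The 5 brightest members ranged from 66.7% G and C (miR-3090-5p) to 84% (miR-3077-5p), and miR-3069-3p had 45.5%. The run GGG, searched on the miRNA strand alone, occurred in 28 of the 94 members (29.8%) and in 30.3% of all 1613 sequences. Of the members with GGG 57.1% were measured on both arrays and of those without it 50%, where over all probes these shares were 73.6% and 44.1%.

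**Figure D5:**
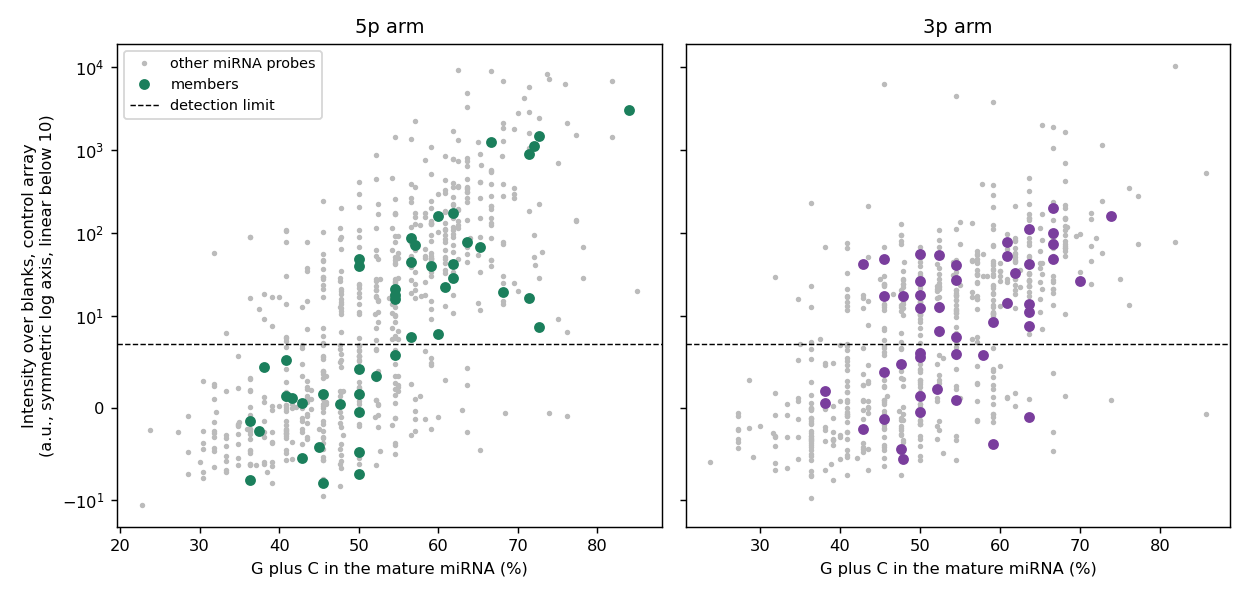
Brightness over blanks on the control array (symmetric log axis, linear below 10, arbitrary units) against the share of G and C in the mature miRNA (%), for 5p probes on the left and 3p probes on the right, members in colour, other probes in grey and the detection limit dashed. The 5 brightest 5p members sit at 66.7% G and C or more.

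miR-3081-5p (chr16:44558092-44558114, minus strand) stood without its partner, whose probe was left out. It had 67.2 over blanks (control) and 47.2 (DSS), a log2 difference of −0.06 that was −0.21 with no scaling and −0.03 in the authors' deposited table. The members measured on both arrays outside the 8 largest differences each way ran from miR-3073a-5p at −0.14 (19.4 and 12.7 over blanks) to miR-3082-5p at 0.20 (40.1 and 46.4). The brightest among them besides miR-3077-5p were miR-3067-3p (158 and 111 over blanks, difference −0.03), miR-3085-5p (160 and 124, 0.10), miR-3087-5p (176 and 113, −0.10) and miR-3093-3p (111 and 68.5, −0.11). With scaling to the spike control spots, which were 2.05-fold and 1.88-fold brighter on the DSS array, the median of all probes was −1.02 and that of the members −1.01, a shift common to both.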

How the data were processed

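The deposited scanner files give, per the file headers, the median spot intensity and a background intensity at 635 nm for 3200 spots per array, combined from 3 scanner gains. A second deposited table lists the authors' linear intensity for each probe, made by steps not given in the sources. Each condition has 1 array, grouped by the agent in the labels, so precision is limited by array number.

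Blank statistics used 896 blank spots, trimmed by 45 at each end. Intensities were corrected with normexp (limma 3.58.1, R 4.3.3; offset 50, fitted on all spots), log2 transformed and quantile normalised over 1899 mouse probes. The procedure was tested on simulated data in which only probes well over the blanks were changed, so the test does not cover dim members. No statistical test was run, since each group holds 1 array. The files' background value was not subtracted in the main setting. What it covers is not given, it rises with the spot, and for members measured on both arrays it amounted to a median of 89.5% (control) and 86.1% (DSS) of the spot. Other settings varied the scaling, background correction, detection limit, fold threshold, flag filter and source of values.

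Named members were the 10 brightest per array, arm pairs with an arm brighter than the median probe, the 8 largest differences each way, the 3 brightest per single array, those next to the limit, those sharing a seed, and miR-3081-5p. Others were named as examples or because a count was small, after their values were seen. The members and lists were chosen with earlier results of these data known.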

Additional observations from a re-analysis of the deposited data

Results flagged for a closer look

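The probe of miR-3081-3p was left out for poor quality flags at 2 of 3 gains on the control array, and it carried signal there: 47.2 over blanks, against a limit of 6.98. On the DSS array, where all its flags were good, it lay at 6.26, below the limit of 9.06. It was noted as signal in data that no comparison used.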

How the results depend on the processing

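The members' median difference of −0.001 moved by no more than 0.14 under most scaling and background settings tried. This is the spread of repeated control spots within an array, and it does not measure differences between arrays. Most of these settings also bring both arrays to a common level, which holds the median of all probes near 0. The exceptions were scaling to the spike control spots (−1.01, beside −1.02 for all probes), the authors' values (0.16, beside 0.21) and subtraction of the files' background value. With that subtraction the members' median was −0.15, with 39 of 54 members left, beside −0.01 for all probes. The count at least 2-fold higher, 0, became 1 with offset 0 and with the blank mean subtracted (miR-3069-3p in both), 1 at a 1.5-fold threshold, 6 in the authors' values and 7 with subtraction of the files' background value. The count at least 2-fold lower, 0, became 1 with median scaling, 75th percentile scaling and no scaling (miR-3102-5p each time), 1 in the authors' values (miR-3101-3p), 2 with the blank mean subtracted, 8 with subtraction of the files' background value and 29 with spike control scaling. With spike control scaling 53.7% of members and 55.2% of all probes were lower. With the background value subtracted 17.9% and 15.3% were higher and 20.5% and 19.3% lower. In the authors' values 11.1% against 8.94% were higher and 1.85% against 4.12% lower. With offset 0 these shares were 1.85% against 1.61% and 0% against 2.51%. With the blank mean subtracted they were 1.85% against 3.42% and 3.7% against 4.82%. Lower members were 1.85% against 4.22% with median scaling, 4.12% with 75th percentile scaling and 5.13% with no scaling. The cause was not tested. Duplexes with both arms measured on both arrays went from 18 to 12 at 3 SD and to 11 with the limit at the negative controls, which require more signal by construction. Members measured on both arrays went from 54 to 47 and 45. Of 36 named members measured on both arrays, 19 kept their direction in all settings other than spike control scaling and subtraction of the background value. With these included 9 did, all lower on the DSS array, where spike control scaling puts the median of all probes at −1.02. No paired analysis was possible because each group holds 1 array, and leaving out an array leaves no comparison. The median brightness of measured members was 40.6 (control) and 31.2 (DSS) over blanks, which limits their folds.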

Other observations

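Among the 47 duplexes with a known 3p sequence, 6 have a 3p arm that ends in the letters CAG (12.8%), against 23.4% of all 629 such duplexes: miR-3076, miR-3077, miR-3082, miR-3097, miR-3100 and miR-3103. As background, introns end in AG, and hairpins made of a whole short intron carry this end on the 3p arm. The 5p arm was measured on both arrays in 6 of these 6 and in 19 of the other 41 (46.3%). Over all duplexes these shares were 86.4% (127 of 147) and 44.2%. Both arms were measured on both arrays in 4 of the 6 and in 14 of the 41, and over all duplexes in 63.3% and 29.9%. This grouping was chosen after the values were seen and was not tested. In the Mir3077 hairpin (chr14:57798424-57798487, plus strand, within the span of Sap18) the mature arms, in capitals, reach both ends.
Mir3077 hairpin: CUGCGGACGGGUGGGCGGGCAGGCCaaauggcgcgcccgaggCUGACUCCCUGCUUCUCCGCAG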
